A study of Mus musculus with 12 samples.

Results

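Genes that mark stromal fibroblasts or adipose-derived stromal cells (ASC) were followed through 12 mouse prostate tumors: Pdgfra, Pdgfrb, Fap, Acta2, Nt5e, Cxcl12, Pdpn, S100a4, Postn and Dcn. They were chosen by symbol and are 10 of the 55401 genes in the count table. All 10 passed the filter on low counts that kept 20818 genes. Every tumor grew from 125000 TC2Ras cells, a mouse prostate cancer cell line, injected under the skin of both flanks of a mouse that had eaten low-arsenic chow. In the group Control these cells were injected alone and the mouse drank water with 0 ppb inorganic arsenic (iAs). In the group ASC, 1% of ASC-GFP cells were mixed in, again with 0 ppb iAs. In A300 the TC2Ras cells were injected alone and the water held 300 ppb iAs, and ASC300 combined the ASC-GFP cells with 300 ppb iAs. Each group had 3 mice, and the tumors of both flanks were combined for each mouse at day 21. The ASC-GFP cells were primary cells of male mice that carry GFP under the ubiquitin C promoter. GFP is not a row of the count table, so that the added cells could not be counted. The host stroma was present in all 4 groups. A marker measured here can come from host fibroblasts, added ASC, the cancer cells or other host cells.

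As background, fibroblasts of a tumor build and remodel the extracellular matrix and send signals to cancer, immune and vascular cells. PDGF receptors carry growth signals into these cells, podoplanin and the ecto-enzymes FAP and CD73 sit on their surface, and CXCL12 is a chemokine that they release. Decorin and periostin are matrix proteins, smooth muscle actin marks contractile myofibroblasts, and ASC share most of these markers with resident fibroblasts. In bulk RNA, fewer cells of a type and less RNA of a gene in each cell cannot be told apart.

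The values are whole-number counts, and total counts ran from 39157647 to 55168642 per tumor. Control replicate 1 stood apart on the first principal component of log2 CPM (counts scaled to library size), at -101.8 against -22.5 to 64.9 in the others. The label for cell type reads adipose-derived stromal cells, although the protocols are those of excised tumors. The libraries also held macrophage RNA (8 genes, summed level 1356 to 2420 CPM), and of the epithelial markers Epcam had a median of 0.318 CPM and Cdh1 of 1.35 CPM, whereas Krt8 had a median of 53.5 CPM.

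Per kilobase of exon, the markers covered a wide range of levels. S100a4, a small calcium-binding protein also made by macrophages and other leukocytes, was highest with 584 ± 114 RPKM (mean ± SD, n = 12). Dcn followed with 132 ± 15.9 RPKM, Pdpn with 74.5 ± 9.80 RPKM and Postn with 48.4 ± 11.3 RPKM. These 4 genes were above the 95th percentile of the genes tested. The other 6 were lower, from Pdgfrb with 14.3 ± 1.61 RPKM through Pdgfra (9.61 ± 1.62), Acta2 (8.74 ± 4.11), Cxcl12 (7.05 ± 1.76) and Nt5e (4.39 ± 1.08) to Fap with 1.17 ± 0.396 RPKM. The ranges over the 12 tumors overlapped between Pdpn and Postn and between each neighboring pair from Pdgfrb down to Nt5e. In RPKM, Pdpn was nevertheless above Postn, and Pdgfrb above Pdgfra, within 12 of 12 tumors, whereas Acta2 was above Cxcl12 in 8 of 12. The length used merges all annotated exons of a gene, 8702 bases for Postn and 1817 for Pdpn, and the order depends on it. In CPM, without division by length, Postn was at 319 or more and Pdpn at 176 or less. The mean of Pdgfra was then 96.3 CPM and that of Pdgfrb 78.4 CPM. Across tumors Pdgfrb varied least, with a coefficient of variation of 11.2%, and Acta2 most, with 47.0%. The median over all genes tested was 22.0%.

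**Figure D1:**
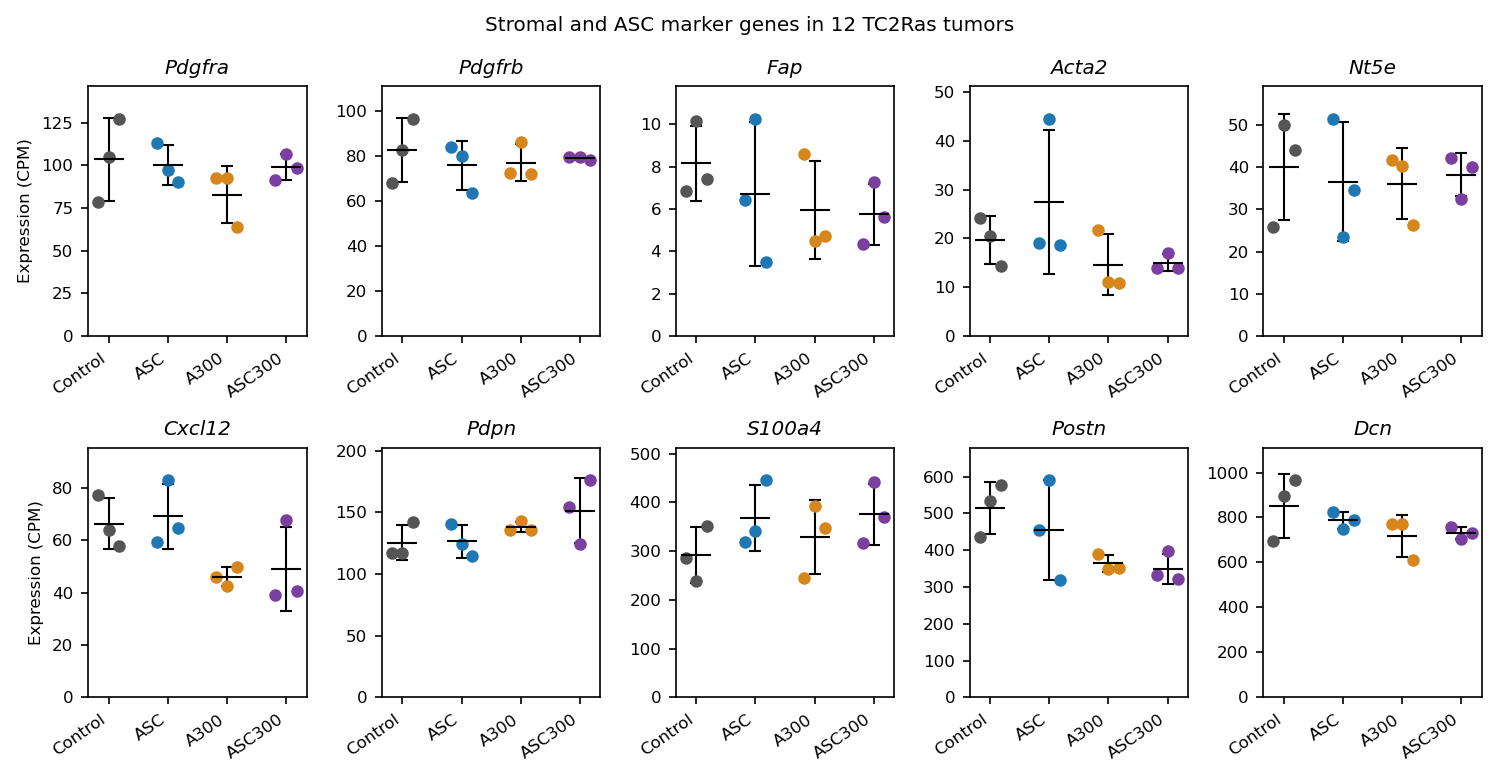
Expression of the 10 marker genes in CPM (y axis of each panel, starting at 0) in the 4 groups (x axis). Points are tumors in the order of replicate 1 to 3, and horizontal lines with bars are the mean and SD of 3 tumors. Cxcl12 and Postn were lower in all A300 tumors than in all Control tumors, and ASC replicate 2 was the highest tumor for Acta2 at 44.6 CPM.

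None of the 10 markers passed the test for a difference between the 6 tumors with ASC and the 6 without. With a call defined by an adjusted p under 0.05 and at least 1.5-fold, the edgeR quasi-likelihood test called 0 of 10 members, beside 1.45% of all 20818 genes, and DESeq2 also called 0. At an unadjusted p under 0.05 the count was 0 of 10, beside 10.9% of all genes. Log2 fold changes lay between -0.16 (Fap) and 0.27 (S100a4), with 5 members higher and 5 lower and a median of 0.025 against -0.0042 over all genes. The 95% interval of the difference stayed within 1.5-fold for 8 of 10 members, as for 52.1% of all genes, and within 2-fold for all 10, as for 66.4%. Fap and Acta2 had the wider intervals. ASC against Control gave 0 of 10 calls (0.721% of all genes) and ASC300 against A300 gave 0 of 10 (0.855% of all genes), and neither had a member with an unadjusted p under 0.05, beside 15.4% and 9.98% of all genes.

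**Figure D2:**
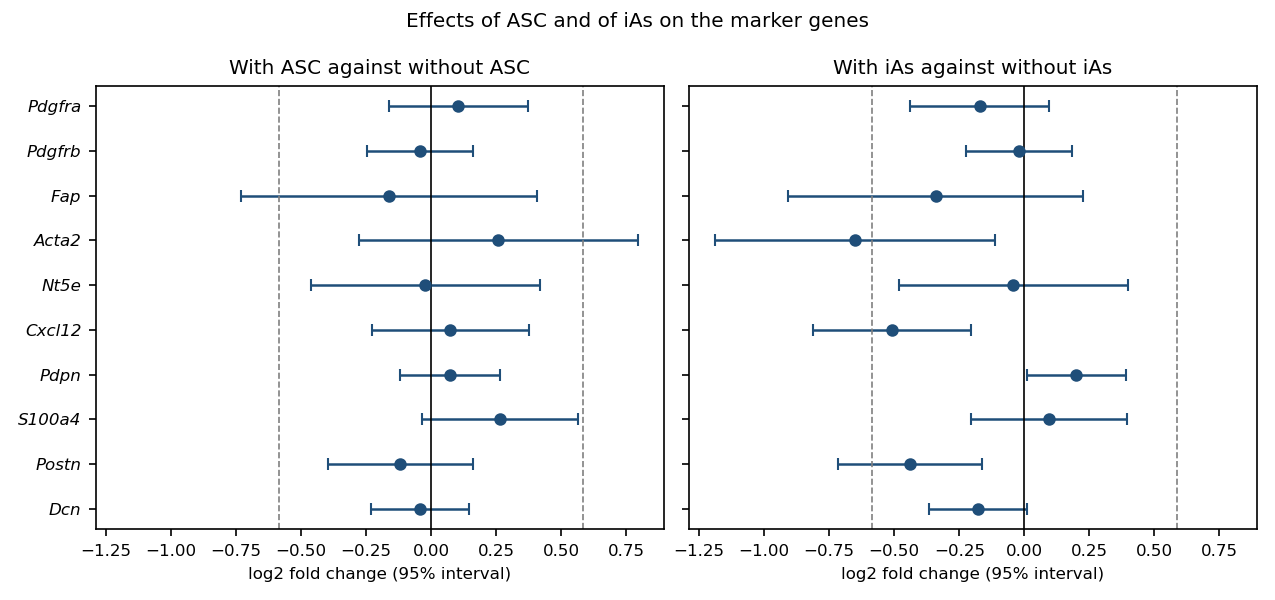
Log2 fold changes (x axis) of the 10 marker genes (y axis) with ASC against without ASC, and with iAs against without iAs, over 6 against 6 tumors. Points are edgeR estimates, bars their 95% intervals and dashed lines 1.5-fold. All 10 intervals for ASC include 0, while those for iAs exclude 0 for Cxcl12, Postn, Acta2 and Pdpn before adjustment.

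The PDGF receptors bind platelet-derived growth factors and mark fibroblasts and, for Pdgfrb, pericytes. In the order of replicates 1 to 3, Pdgfra measured 78.6, 105 and 127 CPM in Control, 113, 97.3 and 90.1 CPM in ASC, 92.2, 92.5 and 63.6 CPM in A300, and 91.4, 107 and 98.2 CPM in ASC300. All 4 groups overlapped, and the lowest and the highest tumor were both without ASC. Pdgfra differed by 0.10 on the log2 scale with ASC (95% interval -0.16 to 0.37, edgeR adjusted p = 0.846), by -0.05 in ASC against Control (-0.43 to 0.33) and by 0.26 in ASC300 against A300 (-0.12 to 0.63). With iAs it differed by -0.17 (-0.44 to 0.097, adjusted p = 0.533). Pdgfrb measured 68.1, 82.6 and 96.4 CPM in Control, 83.7, 79.9 and 63.3 CPM in ASC, 72.4, 86.3 and 71.7 CPM in A300, and 79.5, 79.2 and 78.0 CPM in ASC300. The ASC300 tumors lay close together, inside the range of the Control and A300 tumors. Pdgfrb differed by -0.04 with ASC (-0.25 to 0.16, adjusted p = 0.931), by -0.12 in ASC against Control (-0.41 to 0.16), by 0.04 in ASC300 against A300 (-0.25 to 0.33) and by -0.02 with iAs (-0.22 to 0.18, adjusted p = 0.942). Of their ligands, Pdgfa, Pdgfb and Pdgfc had unadjusted p-values of 0.173, 0.173 and 0.727 with ASC, and Pdgfd was at 0.66 on the log2 scale with ASC (adjusted p = 0.303).

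Fap encodes a surface protease of activated fibroblasts and was the least abundant of the markers. It measured 6.84, 10.2 and 7.42 CPM in Control, 6.40, 10.3 and 3.47 CPM in ASC, 8.61, 4.48 and 4.71 CPM in A300, and 4.36, 7.25 and 5.64 CPM in ASC300. The ASC tumors spanned the whole range of the 12 tumors. Fap differed by -0.16 with ASC (-0.73 to 0.41, edgeR adjusted p = 0.896), by -0.28 in ASC against Control (-1.08 to 0.52), by -0.04 in ASC300 against A300 (-0.85 to 0.76) and by -0.34 with iAs (-0.91 to 0.23, adjusted p = 0.562). Nt5e encodes CD73, which turns AMP into adenosine and is a surface marker of cultured stromal cells. It measured 25.9, 50.1 and 44.0 CPM in Control, 51.6, 23.4 and 34.7 CPM in ASC, 41.7, 40.3 and 26.4 CPM in A300, and 42.3, 32.4 and 40.1 CPM in ASC300. Low and high tumors occurred in Control, ASC and A300 alike. Nt5e differed by -0.02 with ASC (-0.46 to 0.42, adjusted p = 0.987), by -0.13 in ASC against Control (-0.75 to 0.49), by 0.08 in ASC300 against A300 (-0.54 to 0.71) and by -0.04 with iAs (-0.48 to 0.40, adjusted p = 0.944). Entpd1, whose product CD39 makes the AMP that CD73 uses, had means of 29.8 CPM in Control, 39.3 in ASC, 26.0 in A300 and 39.02 in ASC300. It was higher with ASC by 0.49 on the log2 scale (adjusted p = 0.0182), which is under the 1.5-fold minimum.

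S100a4 had the largest log2 fold change with ASC among the members. It measured 286, 239 and 352 CPM in Control, 319, 342 and 446 CPM in ASC, 244, 391.9 and 348 CPM in A300, and 316, 441 and 369 CPM in ASC300. Of the 6 tumors without ASC, 3 were below all tumors with ASC and 3 were within their range. The difference with ASC was 0.27 (-0.03 to 0.56, unadjusted p = 0.0785, edgeR adjusted p = 0.537), with 0.33 in ASC against Control (-0.09 to 0.76), where S100a4 was at 0.17 without ASC replicate 3 and at 0.51 without Control replicate 3, and 0.20 in ASC300 against A300 (-0.23 to 0.62). With iAs it differed by 0.10 (-0.20 to 0.40, adjusted p = 0.779). Macrophages also make S100a4, and 7 of 8 macrophage genes were higher in sign with ASC, beside 49% of all genes. The part of macrophage RNA in the values of S100a4 was not tested. Dcn encodes decorin, a small proteoglycan that binds collagen fibrils. It measured 693, 894 and 966 CPM in Control, 825, 748 and 788 CPM in ASC, 769.6, 773 and 610.2 CPM in A300, and 759, 703 and 731 CPM in ASC300. The 2 highest tumors were Control and the lowest was A300. Dcn differed by -0.04 with ASC (-0.23 to 0.15, adjusted p = 0.921), by -0.11 in ASC against Control (-0.38 to 0.15), by 0.03 in ASC300 against A300 (-0.24 to 0.29) and by -0.18 with iAs (-0.37 to 0.011, adjusted p = 0.342).

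Between the 6 tumors with iAs and the 6 without, no marker passed the adjustment. The edgeR test called 0 of 10 members and 0% of all genes, with 4 of 10 members at an unadjusted p under 0.05 beside 16% of all genes (3325 of 20818). The count of 4 was 2 without ASC replicate 2. DESeq2 called 114 genes and none of the 10. Cxcl12 and Postn passed its adjustment (DESeq2 adjusted p = 0.0205 and 0.0246) at changes under 1.5-fold. Cxcl12, Postn and Acta2 were lower and Pdpn higher before adjustment. Of the members, 8 were lower in sign, as were 53% of all genes, and the median log2 fold change was -0.17 against -0.019 over all genes.

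Because these 4 genes had the smallest p-values with iAs, their promoters are shown for reference, as RefSeq gives them on GRCm38.p6 from 250 bases before to 50 after the transcription start. They are Acta2 (chr19:34255324-34255623, minus strand), Cxcl12 (chr6:117168285-117168584, plus strand), Pdpn (chr4:143299515-143299814, minus strand) and Postn (chr3:54360857-54361156, plus strand). Capitals mark matches on either strand to the TATA box TATAAA, to the GC box GGGCGG, to the box named for CCAAT, and to the E-box CANNTG, where overlapping matches run together.
Acta2: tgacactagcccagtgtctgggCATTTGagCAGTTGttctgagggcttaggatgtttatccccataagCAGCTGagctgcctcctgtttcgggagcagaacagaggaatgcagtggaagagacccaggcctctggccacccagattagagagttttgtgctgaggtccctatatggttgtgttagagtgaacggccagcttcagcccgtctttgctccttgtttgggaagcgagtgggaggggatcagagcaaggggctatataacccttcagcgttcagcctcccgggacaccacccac
Cxcl12: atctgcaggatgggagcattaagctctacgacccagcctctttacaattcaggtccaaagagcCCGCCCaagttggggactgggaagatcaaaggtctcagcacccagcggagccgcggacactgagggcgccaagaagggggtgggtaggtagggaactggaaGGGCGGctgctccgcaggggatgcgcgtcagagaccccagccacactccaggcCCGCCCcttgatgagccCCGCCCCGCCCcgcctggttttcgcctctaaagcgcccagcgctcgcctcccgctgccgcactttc
Pdpn: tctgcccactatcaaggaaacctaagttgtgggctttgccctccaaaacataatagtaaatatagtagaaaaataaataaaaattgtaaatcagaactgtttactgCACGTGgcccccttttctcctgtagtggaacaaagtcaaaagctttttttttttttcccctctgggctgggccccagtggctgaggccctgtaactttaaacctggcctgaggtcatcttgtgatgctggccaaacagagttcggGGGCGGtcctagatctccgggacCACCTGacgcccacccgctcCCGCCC
Postn: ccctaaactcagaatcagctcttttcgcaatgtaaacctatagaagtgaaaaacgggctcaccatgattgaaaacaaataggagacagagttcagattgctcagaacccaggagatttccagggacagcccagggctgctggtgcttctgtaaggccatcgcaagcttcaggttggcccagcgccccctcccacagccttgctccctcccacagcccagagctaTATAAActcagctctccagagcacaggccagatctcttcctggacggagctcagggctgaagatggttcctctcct
The Cxcl12 window held 5 GGGCGG matches and no other motif, Pdpn held 2 GGGCGG and 2 CANNTG matches, Acta2 held 3 CANNTG matches and Postn 1 TATAAA match. Of all 32851 promoters of this length, 13.6% held TATAAA, 35.7% GGGCGG, 37.4% CCAAT and 72.3% CANNTG. None of these motifs was held by all 4 windows. The GC content was 64.7% for Cxcl12, 54.7% for Acta2, 53.0% for Postn and 48.7% for Pdpn, against a median of 52.7%. RefSeq promoters were matched for 7 of the 10 members.

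Cxcl12 encodes the chemokine that binds CXCR4 and ACKR3. It measured 77.2, 64.0 and 57.9 CPM in Control, 59.5, 82.9 and 64.8 CPM in ASC, 46.1, 42.3 and 49.8 CPM in A300, and 38.9, 67.6 and 40.7 CPM in ASC300. Of the 6 tumors with iAs, 5 were below every tumor without iAs, and ASC300 replicate 2 was the exception. The difference with iAs was -0.51 (-0.81 to -0.21, unadjusted p = 0.00317, edgeR adjusted p = 0.181). It was -0.53 in A300 against Control (-0.96 to -0.097, adjusted p = 0.129) and -0.49 in ASC300 against ASC (-0.92 to -0.065, adjusted p = 1), where Cxcl12 was at -0.80 without ASC300 replicate 2. With ASC the difference was 0.07 (-0.23 to 0.38, adjusted p = 0.913), with 0.06 in ASC against Control (-0.37 to 0.49) and 0.09 in ASC300 against A300 (-0.34 to 0.52). Under DESeq2 the adjusted p for iAs was 0.0205, at a change under 1.5-fold, and over all alternatives it ran from 0.0205 to 0.380. The receptor genes Cxcr4 and Ackr3 had unadjusted p-values of 0.901 and 0.775 with iAs.

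Postn encodes periostin, a matrix protein of activated fibroblasts. It measured 437, 533 and 576 CPM in Control, 455, 590.4 and 319 CPM in ASC, 390.4, 349 and 352 CPM in A300, and 332, 397 and 321 CPM in ASC300. All A300 tumors were below all Control tumors, whereas ASC replicate 3 was the lowest of the 12 tumors. The difference with iAs was -0.44 (-0.72 to -0.16, unadjusted p = 0.00467, edgeR adjusted p = 0.183), with -0.50 in A300 against Control (-0.89 to -0.11, adjusted p = 0.117). With ASC it was -0.12 (-0.40 to 0.16, adjusted p = 0.827), with -0.18 in ASC against Control (-0.57 to 0.21) and -0.06 in ASC300 against A300 (-0.45 to 0.34). The adjusted p for iAs was 0.0246 under DESeq2 and 0.037 in edgeR without ASC replicate 3, at changes under 1.5-fold.

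Acta2, the smooth muscle actin of myofibroblasts, pericytes and vessel walls, shares most of its coding sequence with other actins, and how the authors' counting divided such reads is not given. It measured 24.1, 20.6 and 14.4 CPM in Control, 19.2, 44.6 and 18.7 CPM in ASC, 21.8, 11.2 and 10.9 CPM in A300, and 13.98, 17.0 and 13.97 CPM in ASC300. ASC replicate 2 exceeded every other tumor, and the ASC300 tumors were all below the ASC tumors. The difference with iAs was -0.65 (-1.19 to -0.11, unadjusted p = 0.0216, edgeR adjusted p = 0.245) and fell to -0.38 (unadjusted p = 0.0756) without ASC replicate 2. In ASC300 against ASC it was -0.87 (-1.64 to -0.11, edgeR adjusted p = 1), and -0.34 without that tumor. With ASC the difference was 0.26 (-0.28 to 0.79, adjusted p = 0.790), and -0.0094 without that tumor. It was 0.48 in ASC against Control (-0.28 to 1.24), and -0.06 without that tumor, and 0.04 in ASC300 against A300 (-0.72 to 0.80).

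Pdpn encodes podoplanin, a surface glycoprotein of fibroblasts and lymphatic vessels that binds CLEC-2. It measured 117, 117 and 142 CPM in Control, 141, 124 and 114 CPM in ASC, 136, 143 and 136 CPM in A300, and 154, 124 and 176 CPM in ASC300. The 2 highest tumors were ASC300, and the groups overlapped. The difference with iAs was 0.20 (0.0094 to 0.39, unadjusted p = 0.0412, edgeR adjusted p = 0.295), and the unadjusted p was over 0.05 without any of 8 of the 12 tumors. With ASC it was 0.07 (-0.12 to 0.26, adjusted p = 0.850), with 0.01 in ASC against Control (-0.26 to 0.28) and 0.13 in ASC300 against A300 (-0.14 to 0.40).

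The iAs comparison within each ASC level shared no tumor between its 2 tests. In A300 against Control, 0 of 10 members were called beside 1.06% of all genes. Cxcl12 and Postn had an unadjusted p under 0.05, beside 24.1% of all genes, and were the 2 members whose groups did not overlap, both lower, beside 15.4% of all genes not overlapping and lower. The count at an unadjusted p under 0.05 was 1 without Control replicate 2, Control replicate 3, A300 replicate 2 or A300 replicate 3. In ASC300 against ASC, 0 of 10 members and 0% of all genes were called by edgeR, with 669 genes at an unadjusted p under 0.05 and 11 called by DESeq2. Acta2 and Cxcl12 were at an unadjusted p under 0.05, beside 3.21% of all genes, and this count was 0 without ASC replicate 2, ASC300 replicate 1 or ASC300 replicate 3 and 4 without ASC300 replicate 2. Acta2 alone did not overlap, beside 3.91% of genes not overlapping and lower. The interaction of ASC and iAs gave 0 of 10 members and 0% of all genes with edgeR, and 174 genes and no member with DESeq2. No member had an unadjusted p under 0.05 for it, beside 13.6% of all genes (2836), and the log2 values ran from -0.44 for Acta2 to 0.30 for Pdgfra.

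RNA of other cell types varied between the same tumors. The summed level of 6 adipocyte genes was 276, 167 and 132 CPM in Control, 47.2, 519.7 and 54.0 CPM in ASC, 67.7, 72.1 and 47.2 CPM in A300, and 36.1, 60.9 and 52.8 CPM in ASC300. The 4 highest tumors were thus Control and ASC replicate 2, which was also the highest tumor for Cxcl12, Postn and Acta2. All 6 adipocyte genes were lower with iAs at an unadjusted p under 0.05, beside 8.46% of all genes, and 0 were called. The log2 fold changes were -1.68 for Fabp4 and -3.16 for Plin1 (edgeR adjusted p = 0.181 and 0.183). Without ASC replicate 2 these were -0.78 for Fabp4 and -1.24 for Plin1. Lep was at 0 in 1 tumor and Adipoq and Plin1 were detected in all 12. The summed level of 7 skeletal muscle genes was 1886 CPM in Control replicate 2, 1842 CPM in A300 replicate 1 and 1.43 to 382 CPM in the other tumors. For 4 lymphoid stroma genes the summed level was 36.6 CPM in Control replicate 1 and 0.335 to 3.86 CPM in the other tumors. The part of adipocyte, muscle and lymphoid RNA in the values of the markers was not tested.

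**Figure D3:**
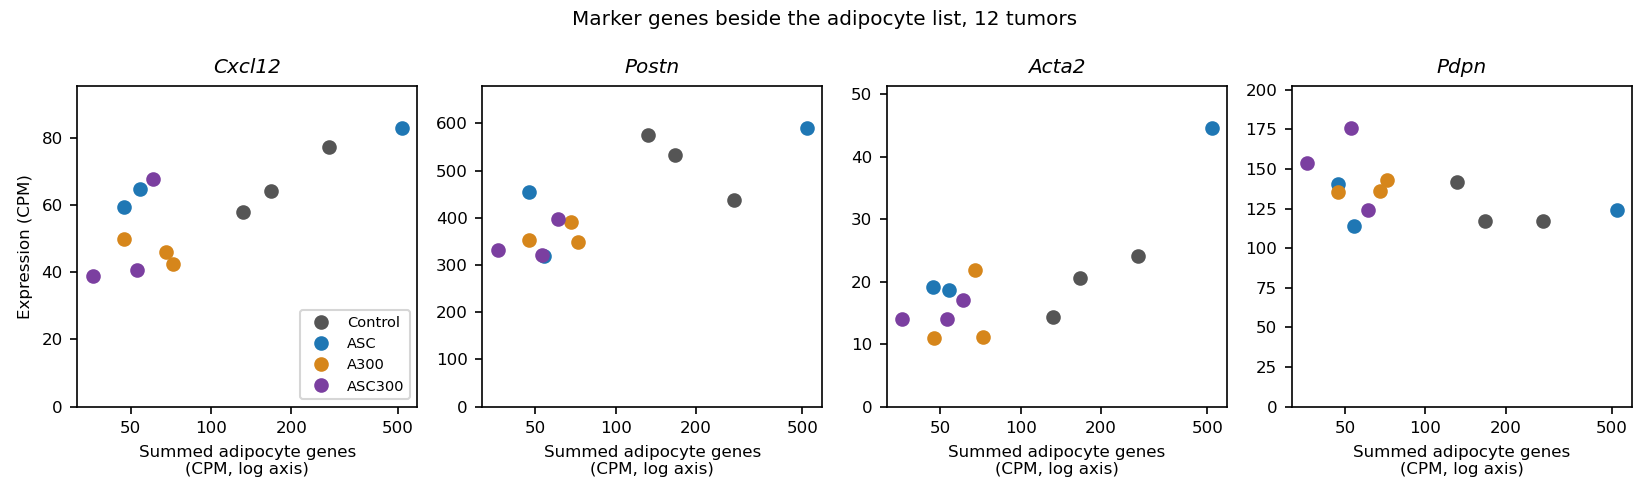
Expression of Cxcl12, Postn, Acta2 and Pdpn in CPM (y axes from 0) against the summed CPM of 6 adipocyte genes (x axes, logarithmic) in the 12 tumors, colored by group. The tumors with iAs lie between 36.1 and 72.1 CPM of adipocyte genes, together with ASC replicates 1 and 3, and ASC replicate 2 lies at 519.7 CPM.

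Among 99 tested genes of 8 related stromal lists, 2 rose with ASC and 0 fell, beside 1.36% of all genes called higher and 0.0865% called lower, and the median log2 fold change was 0.037. Both belong to the Ly6 family of surface proteins, which are also made by endothelium and leukocytes. Ly6a, the stromal and progenitor antigen Sca-1, measured 73.3, 74.7 and 53.5 CPM in Control, 196, 263 and 221 CPM in ASC, 97.9, 60.9 and 63.5 CPM in A300, and 201, 211 and 266 CPM in ASC300. Ly6c1 measured 30.1, 34.1 and 29.4 CPM in Control, 72.4, 103 and 76.3 CPM in ASC, 33.8, 34.4 and 21.8 CPM in A300, and 63.6, 75.1 and 87.6 CPM in ASC300. For both genes every tumor with ASC was above every tumor without, as for 1.68% of all genes. The log2 fold changes were 1.68 for Ly6a (edgeR adjusted p = 1.92e-05) and 1.38 for Ly6c1 (adjusted p = 6.23e-05). They were called under every alternative tried. Summed blood endothelial genes ran from 145 to 248 CPM with ASC and from 150.01 to 209.5 CPM without. Summed macrophage genes ran from 1602 to 2420 CPM with ASC and from 1356 to 1825 CPM without. Of the 8 genes, 7 were higher in sign, beside 49% of all genes, with a median of 0.34 on the log2 scale. At an unadjusted p under 0.05 in edgeR, 4 of the 8 were higher, beside 6.93% of all genes. The cause of the rise in Ly6a and Ly6c1 was not tested. This holds for the part of endothelial and macrophage RNA and for a change of RNA within cells of any type.

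**Figure D4:**
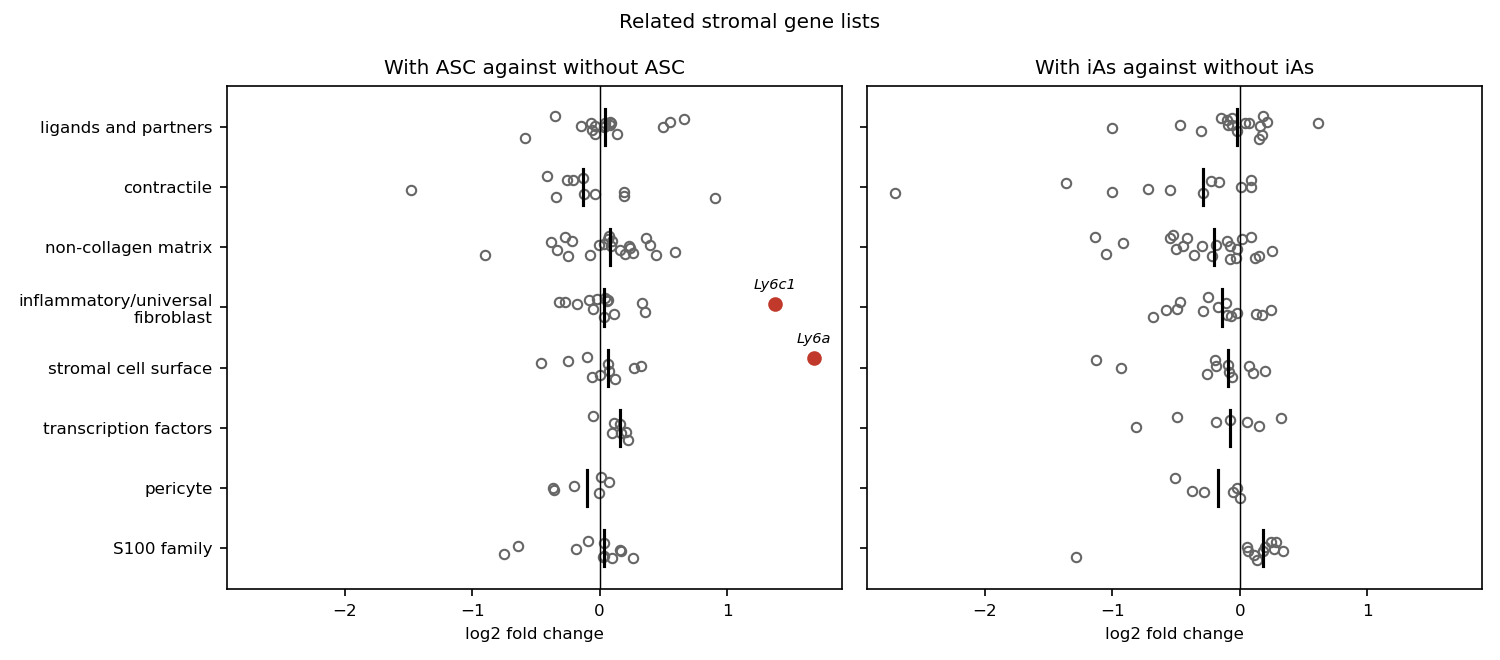
Log2 fold changes (x axis) of the genes of 8 related stromal lists (y axis) with ASC against without ASC and with iAs against without iAs. Circles are genes, vertical bars are list medians and filled red circles are genes called by edgeR, which were Ly6a and Ly6c1 for ASC (1.68 and 1.38) and none for iAs.

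In the other lists no gene was called for ASC, and the 2 genes with the smallest p-values illustrate each. Of 17 partners of the members, Entpd1 is given above, with Pdgfd. Of 11 contractile genes, Myl9 was at -0.41 and Tpm1 at -0.21 on the log2 scale (adjusted p = 0.367 and 0.470). Of 22 matrix genes outside the collagens, Tnc was at -0.33 and Tgfbi at 0.24 (adjusted p = 0.0963 and 0.119). Among 7 transcription factors Tbx18 was at 0.16 and Prrx1 at 0.11 (adjusted p = 0.539 and 0.578), among 6 pericyte genes Kcnj8 was at -0.36 and Abcc9 at -0.36 (0.235 and 0.520), and among 11 S100 genes S100a16 was at 0.26 and S100a8 at -0.75 (0.465 and 0.529). S100a8 was under 2 CPM on average in every group.

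With iAs, 0 of the 99 related genes were called by edgeR and 2 by DESeq2 (Meox2 and Dpp4), with 6 higher and 15 lower at an unadjusted p under 0.05, beside 7.51% of all genes higher and 8.46% lower at that p, and a median of -0.086. In sign alone, 53% of all genes were lower and 47% higher with iAs, which are the shares to set beside the lists below. The contractile list, to which Acta2 is related, had 8 of 11 genes lower and a median of -0.29, with Lmod1 at -2.70 and Actg2 at -1.36 (edgeR adjusted p = 0.181 and 0.271), both under 2 CPM on average in every group. The matrix list, beside Postn and Dcn, had 17 of 22 genes lower and a median of -0.20, with Fbln1 at 0.25 and Ogn at -1.05 (adjusted p = 0.194 and 0.240). The S100 list had 10 of 11 genes higher and a median of 0.19, with S100a6 at 0.27 and S100a8 at -1.29 (adjusted p = 0.291 and 0.187). Of the rest, Meox2 was at -0.81, Twist2 at 0.32, Igf1 at -0.49, Lif at 0.24, Ngfr at -1.13, Mcam at -0.19, Abcc9 at -0.51, Rgs5 at -0.37, Itgb5 at 0.17 and Dpp4 at -1.002, with adjusted p-values from 0.189 to 0.550. S100a8 and Ngfr were also under 2 CPM on average in every group. Without ASC replicate 2, Actg2 was at -0.69, Ogn at -0.58 and Igf1 at -0.25, and without A300 replicate 1 Rgs5 was at -0.79.

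Of 49 tested genes that mark other cells, 1 rose and 1 fell with ASC, beside the 1.36% and 0.0865% of all genes given above. C1qb, a complement gene of macrophages, rose by 0.61 on the log2 scale (edgeR adjusted p = 0.00213), from means of 174 CPM in Control and 241 in A300 to 309 in ASC and 316 in ASC300. The change was under the 1.5-fold minimum without Control replicate 3, ASC replicate 2 or ASC300 replicate 2, with 0.55 as the lowest value. Krt8, an epithelial keratin, fell by 2.03 (adjusted p = 0.00632), from means of 163 CPM in Control and 98.9 in A300 to 33.9 in ASC and 28.6 in ASC300. The Control tumors measured 337, 62.1 and 89.9 CPM. Without Control replicate 1 the change in Krt8 was -1.48, and it was still called. Of the 7 epithelial genes tested, 5 were lower and 2 higher with ASC, from -2.29 to 2.62 on the log2 scale. In the lists without a call for ASC, the 2 genes with the smallest p-values were Pparg and Lep (adipocyte), Kdr and Pecam1 (blood endothelium), Flt4 and Ccl21a (lymphatic endothelium), Cxcl13 and Cr2 (lymphoid stroma), Mbp and Sox10 (Schwann cells), Pvalb and Ckm (skeletal muscle) and Krt10 and Lor (skin), with adjusted p-values from 0.0911 for Flt4 to 0.999 for Lor. Ccl21a, Cxcl13 and Cr2 measured 33.5, 13.3 and 19.1 CPM in Control replicate 1. In the other tumors they reached at most 1.36, 1.98 and 1.69 CPM. With iAs edgeR called 0 of the 49 and DESeq2 called 2, with 4 higher and 10 lower at an unadjusted p under 0.05, beside 7.51% and 8.46% of all genes. Genes with the smallest p-values in these lists, beyond Fabp4 and Plin1, included Pecam1, Kdr, Cldn4, Krt18, Lyve1, Ccl21a, Cr2, Cxcl13, C1qb, C1qa, Mbp, Pvalb, Myh4, Krt10 and Lor, with adjusted p-values from 0.181 for Mbp to 0.949 for Lor.

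Across tumors, some markers rose and fell together and others moved in opposite directions. Of the 45 pairs among the 10 genes, 28 had a positive Pearson correlation of log2 CPM over the 12 tumors, and the median r was 0.122. Pearson's r passed the adjustment over 45 pairs for 4 pairs and Spearman's rho for 3, by permutation tests, and both did for 2. Fap and Postn, which mark activated fibroblasts, had r = 0.819 (permutation p = 0.00137, adjusted p = 0.0218) and rho = 0.846 (p = 0.00086, adjusted p = 0.0221). Cxcl12 and Pdpn had r = -0.808 (permutation p = 0.00138, adjusted p = 0.0218) and rho = -0.846 (p = 0.00098, adjusted p = 0.0221). Without the 2 tumors farthest from the median of the first gene, r was 0.732 and -0.711. Pdgfra and Dcn had r = 0.831 (permutation p = 0.00145, adjusted p = 0.0218) and rho = 0.573 (p = 0.0564, adjusted p = 0.226), and r was 0.475 without Control replicate 3 and A300 replicate 3. Acta2 and Cxcl12 had r = 0.736 (permutation p = 0.00394, adjusted p = 0.0443) and rho = 0.699 (p = 0.0145, adjusted p = 0.130), with r = 0.678 without ASC replicate 2 and A300 replicate 3. Nt5e and Dcn had r = 0.704 (permutation p = 0.00882, adjusted p = 0.0794) and rho = 0.790 (p = 0.00306, adjusted p = 0.0459), with r = 0.807 without Control replicate 1 and ASC replicate 2.

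After the 4 group means were removed, the same pairs had r = 0.846 for Fap and Postn, -0.763 for Cxcl12 and Pdpn, 0.880 for Pdgfra and Dcn, 0.563 for Acta2 and Cxcl12 and 0.830 for Nt5e and Dcn. None of these passed the adjustment when tumors were permuted within groups (adjusted p = 0.180, 0.341, 0.180, 0.180 and 0.0939 by permutation). With 3 tumors a group few distinct arrangements exist, so that a single pair passes only near the smallest p possible. Missing the adjustment within groups therefore does not show that a pair is unrelated there. The pair that did pass was Cxcl12 and Dcn, with r = -0.599 within groups (permutation p = 0.00086, adjusted p = 0.0387) beside 0.065 over all 12 tumors (permutation p = 0.841). The number of pairs passing over all tumors was 0 without Control replicate 1, Control replicate 2, ASC replicate 1, A300 replicate 3 or ASC300 replicate 1, 2 without ASC300 replicate 3, and 8 without ASC replicate 3, so that each pair missed the threshold without any of the first 5 tumors.

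**Figure D5:**
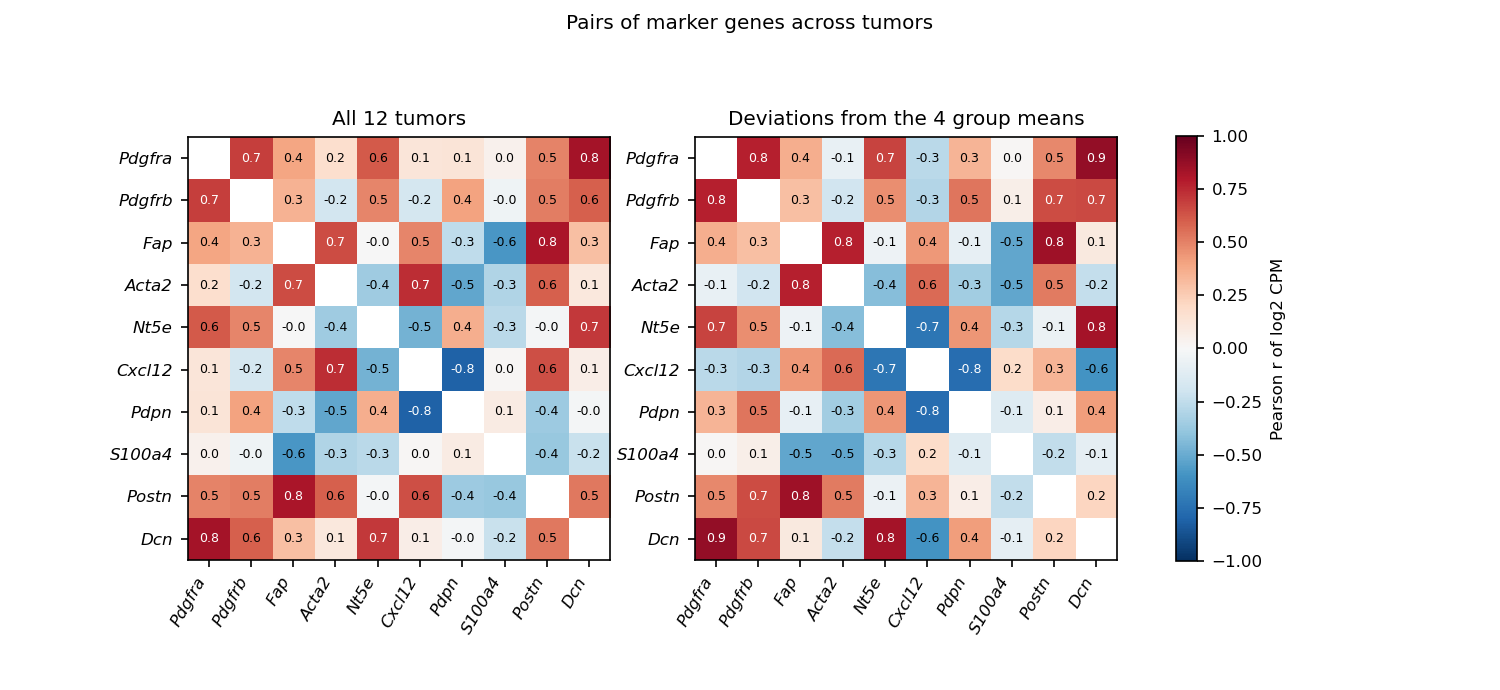
Pearson correlation of log2 CPM for the 45 pairs of marker genes, over all 12 tumors and for deviations from the 4 group means, with color and printed value giving r. The r of Pdgfra with Dcn was 0.831 over all tumors and 0.880 within groups, that of Fap with Postn 0.819 and 0.846, and that of Cxcl12 with Pdpn -0.808 and -0.763. None of these passed the adjustment within groups, where few distinct arrangements of the tumors exist.

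As a description, genes whose log2 CPM followed each member closely over the 12 tumors were searched among all tested genes, so that a high r is expected for some gene in any such search. Acta2 was followed by Rarres2, the chemerin gene, with r = 0.947 and Bicc1 with r = 0.940, and Nt5e by Zmiz1 with r = 0.955. Postn was followed by Wdr7 (r = 0.950) and Igfals (r = 0.925), Fap by Inpp4a (r = 0.921) and Scara5 (r = 0.913), and Cxcl12 by Gm36638 (r = 0.910) and H2-Q10 (r = 0.893). Pdgfra was followed by Canx (r = 0.899), Pdgfrb by Gm8539 (r = 0.877) and Rab6a (r = 0.847), and Pdpn by Cited2 (r = 0.873) and Kcnab1 (r = 0.870). S100a4 was followed by Aif1l (r = 0.916) and Fabp5 (r = 0.909), and Dcn by Azin1 (r = 0.915) and Npr3 (r = 0.898). No member was among the 2 closest genes of another member.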

How the data were processed

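RNA of 12 tumors was sequenced as stranded poly(A) libraries with paired ends. The authors trimmed reads with cutadapt 1.1.0, aligned them with HISAT2 2.0 and assembled and quantified transcripts with StringTie 1.3.4 and Ballgown, with versions from the submitters' processing notes. They deposited whole-number counts without normalization. The step that made the counts and the genome build are not given in the sources used here. In every tumor more genes had 4 counts (1137 to 1298) than 3 (618 to 795) or 5 (380 to 414), so that 1 count may not be 1 read pair.

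Ensembl IDs were matched to symbols and exon lengths of GENCODE M21 (55141 of 55401), and 166 of 167 listed symbols matched. The markers and the other gene lists were chosen with earlier results of these data known. Genes were filtered with filterByExpr, normalized by TMM and fitted with 1 mean per group over all 12 tumors in edgeR 4.0.16 (R 4.3.3), which tested 20818 genes in 7 comparisons with the quasi-likelihood F test and Benjamini-Hochberg adjustment over all of them. A gene was called at an adjusted p under 0.05 and at least 1.5-fold. Intervals of 95% come from the F statistic and its degrees of freedom. Log2 CPM carried a prior count of 2. Pairs were tested with 100000 permutations, two-sided. Replicates are separate mice. The smallest p of an exact permutation of 3 against 3 is 0.1, so model p-values are given. Depth of 39157647 to 55168642 counts leaves the spread between tumors as the main error.

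All 10 markers are named in the ASC and iAs comparisons, and those with an unadjusted p under 0.05 in A300 against Control, ASC300 against ASC and the interaction. Of every other list, called genes or else the 2 with the smallest p are named, together with Pdgfa, Pdgfb, Pdgfc, Cxcr4 and Ackr3 as partners of a marker, and for likeness the 2 genes with the highest r. A few genes that this rule selects are not reported here. Alternatives were DESeq2 1.42.0, its size factors in edgeR, no filter, at least 10 counts in every tumor, counts divided by 4, the replicate number as a block, only the tumors compared, no minimum fold, and leaving out each tumor.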

Additional observations from a re-analysis of the deposited data

How the results depend on the processing

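None of the 10 markers was called in any of the 7 comparisons under any alternative. Depth limited the markers less than the spread between the 3 tumors of a group, since the least abundant of them, Fap, was at 3.47 CPM or more in every tumor. The cause of the changes below was not tested, apart from the fewer genes or tumors that a setting leaves. Of the values of the markers in the comparisons where they are named, 285 of 288 kept their direction when a setting other than the left-out tumor was changed. When a tumor was left out, 477 of 528 did. Since no marker was called under any setting, these counts are of direction alone.

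The replicate number was not a pairing in these tumors (correlations of same-numbered tumors from -0.124 to 0.172, with 2 of 18 over 0.1). With it as a block, the ASC effect had 1 marker at an unadjusted p under 0.05, S100a4 at 0.27 on the log2 scale, against 0 without, 0 markers were called, and ASC300 against A300 had 6 genes called lower against 13.

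Counts over all genes called moved by over 1.5 times as follows. DESeq2 gave 85 lower (against 18) in the ASC effect, 373 higher (against 147) and 77 lower (against 3) in ASC against Control, 308 higher (against 165) and 91 lower (against 13) in ASC300 against A300, 30 higher (against 0) and 84 lower (against 0) in the iAs effect, 495 higher (against 146) and 321 lower (against 74) in A300 against Control, 4 higher (against 0) and 7 lower (against 0) in ASC300 against ASC and 29 higher (against 0) and 145 lower (against 0) in the interaction. An edgeR fit with no filter gave 8 higher (against 146) and 0 lower (against 74) in A300 against Control. A filter of at least 10 counts in every tumor gave 34 lower (against 18) in the ASC effect, 11 lower (against 3) in ASC against Control and 339 higher (against 146) and 115 lower (against 74) in A300 against Control. Counts divided by 4 gave 28 lower (against 18) in the ASC effect, 9 lower (against 3) in ASC against Control and 354 higher (against 146) in A300 against Control. A fit of only the tumors compared gave 87 higher (against 147) in ASC against Control, 42 lower (against 13) in ASC300 against A300, 34 lower (against 74) in A300 against Control and 1 higher (against 0) in ASC300 against ASC. Calls with no minimum fold gave 29 lower (against 18) in the ASC effect, 7 lower (against 3) in ASC against Control and 328 higher (against 146) and 265 lower (against 74) in A300 against Control.

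With a tumor left out, the genes called ran from 11 to 32 lower in the ASC effect, 100 to 298 higher and 1 to 57 lower in ASC against Control, 92 to 231 higher and 1 to 46 lower in ASC300 against A300, 0 to 14 higher and 0 to 45 lower in the iAs effect, 0 to 279 higher and 0 to 165 lower in A300 against Control, 0 to 1 higher and 0 to 1 lower in ASC300 against ASC and 0 to 1 higher and 0 to 1 lower in the interaction. Without Control replicate 1, A300 against Control had 0 calls in either direction. Pairs of markers past the adjustment ran from 0 to 8.

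Log2 fold changes that turned sign when a tumor was left out ran as follows. In the ASC effect, Cr2 from -1.75 to 0.59, Nt5e from -0.19 to 0.10, Pvalb from -3.31 to 0.71, Ckm from -3.55 to 1.08, Krt10 from -0.025 to 0.22, Pdgfrb from -0.11 to 0.022, Dcn from -0.11 to 0.0072, Lor from -0.16 to 0.15, Acta2 from -0.0094 to 0.46, Cxcl12 from -0.078 to 0.15, Fap from -0.38 to 0.020 and Pecam1 from -0.034 to 0.16. In ASC against Control, Pdpn from -0.054 to 0.12, Nt5e from -0.44 to 0.11, Pdgfra from -0.21 to 0.14, Pdgfrb from -0.24 to 0.019, Cxcl12 from -0.094 to 0.19, Dcn from -0.23 to 0.0028, Acta2 from -0.056 to 0.71, Fap from -0.72 to 0.029 and Postn from -0.41 to 0.019. In ASC300 against A300, Pdgfrb from -0.026 to 0.13, Fap from -0.27 to 0.32, Acta2 from -0.16 to 0.44, Nt5e from -0.12 to 0.20, Dcn from -0.10 to 0.084, Cxcl12 from -0.23 to 0.22 and Postn from -0.17 to 0.0043. In the iAs effect, Krt18 from -1.55 to 0.25, Nt5e from -0.16 to 0.13, Pvalb from -3.86 to 2.05, Myh4 from -4.69 to 2.60, Pdgfrb from -0.075 to 0.055 and Lor from -0.10 to 0.20.

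Values near 0 also turned sign under other settings. In the ASC effect Lor was at -0.0064 with DESeq2, -0.0047 with DESeq2 size factors, -0.0032 with no filter, -0.0063 with at least 10 counts in every tumor and -0.025 with counts divided by 4, against 0.0058. In ASC300 against A300, Acta2 was at -0.00017 and Dcn at -0.0084 with at least 10 counts in every tumor, and Dcn at -0.012 with counts divided by 4.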
